A study of Mus musculus with 6 samples.

Results

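The tumour suppressor p53 is held in check by a small set of proteins that act on it directly, and the transcripts of these regulators are described here in mouse embryonic stem cells. The set was defined as Trp53, which encodes p53, with Mdm2, Mdm4, Usp7, Ppm1d and Trp53bp1. A gene was taken from probe sets that carry its symbol alone in the platform annotation, and where there were several the probe set with the highest mean stood for it. Of the 6 listed genes 5 were measured, each by 1 probe set, out of 22180 genes named in this way; Trp53 itself is not analysed here, so every value below belongs to a regulator and none to p53. A further probe set that carries Trp53bp1 together with another gene was not used.

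p53 is a transcription factor that is made continuously and, in unstressed cells, is destroyed about as fast as it is made. The ubiquitin ligase MDM2 marks it for the proteasome, the related MDM4 blocks its activation domain, and the deubiquitinase USP7 removes ubiquitin from both MDM2 and p53. Mdm2 and Ppm1d are themselves activated by p53, which closes negative feedback loops, and in embryonic stem cells p53 restrains self-renewal and favours differentiation.

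The cells had been infected with lentivirus delivering a control shRNA, an shRNA against Chd4 or an shRNA against Mbd3, which gives 3 lines: control, Chd4 knockdown and Mbd3 knockdown. CHD4 is the motor of the chromatin complex NuRD, which slides nucleosomes and removes histone acetylation, and MBD3 is a structural subunit of it; the study's title ties CHD4 to p53 and to neural differentiation. Each line was profiled at day 0, as stem cells on gelatin in serum medium with leukemia inhibitory factor, and at day 4, after re-aggregation in low-adhesion wells in medium with KSR to induce neural differentiation. With 1 Mouse Gene 2.0 ST array in each of the 6 groups, a difference between a pair of arrays has no replicate behind it. The precision of such a difference is therefore unknown.

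Values are intensities on a linear scale, with array medians between 39.6 and 41.4 over all probe sets, and differences are on the log2 scale. The targeted genes show how far each knockdown went: Chd4 stood at 29.8% of its control intensity at day 0 and 71.3% at day 4 in its own knockdown, and Mbd3 at 43.0% and 75.5% in its own. The stem cell label was met at day 0, where all 10 stem cell markers, Pou5f1, Nanog and Sox2 among them, exceeded 41.4 on each array. The day 4 groups differed in their markers. The summed intensity of those 10 markers was 4126 in control, 7742 after Chd4 and 6954 after Mbd3 depletion. At day 0 it was 11977, 11785 and 11087. The day 4 sum of 10 early neural progenitor markers, all above 41.4 in control and 8 in each knockdown, was 6259, 909 and 1349. At day 0 this sum was 596, 492 and 525, with 7, 4 and 4 of these markers above 41.4. Sums of 8 postmitotic neuron markers, 8 of them above 41.4 in control and 4 in each knockdown, were 3128, 1562 and 1332. Their day 0 sums were 2173, 2173 and 1312 in the same order. Those of 6 trophectoderm markers were 309, 406 and 507, each below its line's day 0 sum of 689, 577 and 712. Fibroblast markers (7) summed to between 315 and 437 and mesoderm and endoderm markers (8) to between 400.1 and 453 over all arrays.

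Mdm2 and Ppm1d, both known targets of p53, are the members that differed most between the knockdowns in stem cells, and for this reason their upstream sequence is shown. The stretches below are the 250 bases before the annotated gene start in RefSeq, build GRCm38.p6, read on the gene's own strand: chr10:117710759-117711008 on the minus strand for Mdm2 and chr11:85311004-85311253 on the plus strand for Ppm1d. RefSeq windows matched all 6 listed genes, with 2 windows for Mdm4. Capitals mark matches to the p53 response element decamer, a half-site of which a full element holds 2. The decamer is its own reverse complement in consensus form, and each window shown holds a single match to it. In Ppm1d capitals also mark the cAMP response element, TGACGTCA.
Mdm2: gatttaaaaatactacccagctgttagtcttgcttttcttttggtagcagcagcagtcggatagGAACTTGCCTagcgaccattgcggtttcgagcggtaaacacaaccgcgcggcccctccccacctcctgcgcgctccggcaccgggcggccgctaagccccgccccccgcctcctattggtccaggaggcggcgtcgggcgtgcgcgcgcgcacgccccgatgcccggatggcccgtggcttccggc
Ppm1d: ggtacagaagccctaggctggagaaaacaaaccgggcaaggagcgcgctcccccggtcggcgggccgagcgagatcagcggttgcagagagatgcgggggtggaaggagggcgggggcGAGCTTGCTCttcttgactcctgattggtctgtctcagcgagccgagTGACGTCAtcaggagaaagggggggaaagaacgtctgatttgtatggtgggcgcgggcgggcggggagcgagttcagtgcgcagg
Both strands were searched, and the matches of the decamer and the cAMP response element do not overlap. The Mdm2 decamer lies 186 to 177 bases and the Ppm1d decamer 132 to 123 bases before the start, and the cAMP response element of Ppm1d lies 85 to 78 bases before it. A decamer match was present in 7.13% of all 32851 upstream windows of this length and a cAMP response element in 1.55%. The window of Trp53 also held a decamer match, 75 to 66 bases before its start, and no cAMP response element. The windows of Mdm4, Usp7 and Trp53bp1 held neither. These are matches of letters in a window, and the internal promoter of Mdm2 through which p53 is known to act lies in the first intron, outside it.

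Mdm2, the ligase that degrades p53, varied most among the 5 members. In control, Chd4 knockdown and Mbd3 knockdown its intensity was 798, 786 and 1156 at day 0, and 404, 738 and 804 at day 4. The control array at day 4 stood far below the others, and the Mbd3 knockdown at day 0 stood above them; the other 4 arrays lay between 738 and 804. In control cells Mdm2 thus came to 50.6% of its day 0 intensity, a log2 difference of -0.98.

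Against control at day 0, Mdm2 differed by -0.02 on the log2 scale with Chd4 depleted and by 0.53, or 1.45-fold, with Mbd3 depleted. At day 4 it was 1.83-fold higher in the Chd4 line and 1.99-fold higher in the Mbd3 line, log2 differences of 0.87 and 0.99. Both knockdowns are set against the same control array at each day, so the day 4 differences share the low control value. Within the knockdown lines Mdm2 differed little between the days with Chd4 depleted, at 93.9% of day 0, and stood at 69.6% of day 0 with Mbd3 depleted. With 16 subtracted from each intensity before log2 the day 4 difference of the Mbd3 knockdown was 1.02 and with quantile normalization 1.01, past 2-fold in both, and the difference between the days in control was -1.01 with 16 subtracted.

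**Figure D1:**
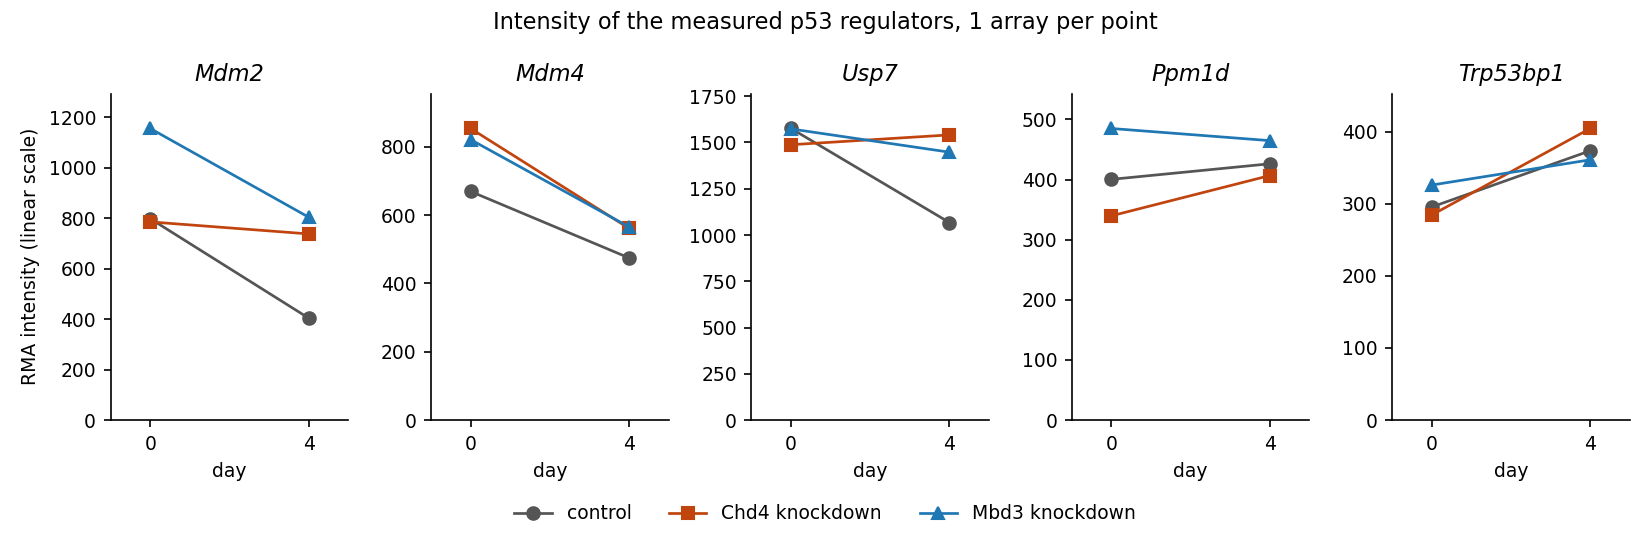
RMA intensity (linear scale from 0) of the 5 measured regulators at day 0 and day 4; each point is 1 array, and lines join the arrays of the control, Chd4 knockdown and Mbd3 knockdown lines. In Mdm2 the control point at day 4, at 404, lies below 5 arrays that reach from 738 to 1156, and in Mdm4 the 3 lines descend side by side.

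Mdm4, the relative of Mdm2 that silences p53 without being an efficient ligase, differed between the days by a similar size in every line. Its intensity was 669 with the control shRNA, 853 with Chd4 and 821 with Mbd3 depleted at day 0, and 474, 561 and 565 at day 4. All 3 day 0 arrays lay above all 3 day 4 arrays, an order that 13.5% of 12926 genes share. The log2 difference between the days was -0.50 in control, -0.60 in the Chd4 line and -0.54 in the Mbd3 line.

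The knockdown arrays of Mdm4 lay above their control at both days, as they did for 12.7% of the 12926 genes. The log2 differences were 0.35 and 0.29 at day 0 and 0.24 and 0.25 at day 4, for Chd4 and Mbd3. The knockdowns themselves differed from each other by 1.04-fold at day 0 and 1.01-fold at day 4, less than either differed from control.

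Usp7, whose product protects MDM2 and p53 from degradation, had 1 array apart from the rest. Its intensity was 1576 with the control shRNA, 1488 with Chd4 and 1573 with Mbd3 depleted at day 0, and 1068, 1541 and 1448 at day 4. The 5 arrays other than control at day 4 lay between 1448 and 1576. Control cells at day 4 had 67.8% of the day 0 intensity, against 104% in the Chd4 line and 92.0% in the Mbd3 line. Relative to control, Usp7 was 1.44-fold and 1.36-fold higher at day 4 in the Chd4 and Mbd3 knockdowns, after log2 differences of -0.08 and -0.002 at day 0.

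Mdm2, Mdm4 and Usp7 were thus all lowest in control cells at day 4, 3 of 5 members, where 29.0% of 12926 genes had their lowest array. That array is also the one with the most early neural and the least stem cell marker signal; the part of this shift in the members' values was not tested. In whole-culture RNA, fewer cells with a transcript and less transcript per cell cannot be told apart.

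Ppm1d encodes WIP1, a phosphatase that removes activating phosphates from p53 and from the kinases upstream of it. Its intensity was 400.3 with the control shRNA, 339.6 with Chd4 and 485 with Mbd3 depleted at day 0, and 426, 407 and 465 at day 4. The Chd4 knockdown gave the lower and the Mbd3 knockdown the higher value on either day, with control between them. At day 0 the knockdowns lay on opposite sides of control, with log2 differences of -0.24 for Chd4 and 0.28 for Mbd3, and differed from each other by 1.43-fold. At day 4 these differences were -0.07 and 0.12. Mdm2 gave a similar gap between the knockdowns at day 0, 1.47-fold with Mbd3 depletion the higher, and 1.09-fold at day 4.

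Trp53bp1 encodes 53BP1, a chromatin reader that binds p53 and directs the repair of DNA breaks. Its intensity was 295 with the control shRNA, 284 with Chd4 and 326 with Mbd3 depleted at day 0, and 373, 404 and 361 at day 4. Every day 4 array lay above every day 0 array, which 11.9% of 12926 genes also showed, and the direction was opposite to that of Mdm4. The log2 difference between the days was 0.34 in control, 0.51 in the Chd4 line and 0.15 in the Mbd3 line. Differences from control were between -0.06 and 0.14 over the 4 comparisons.

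**Figure D2:**
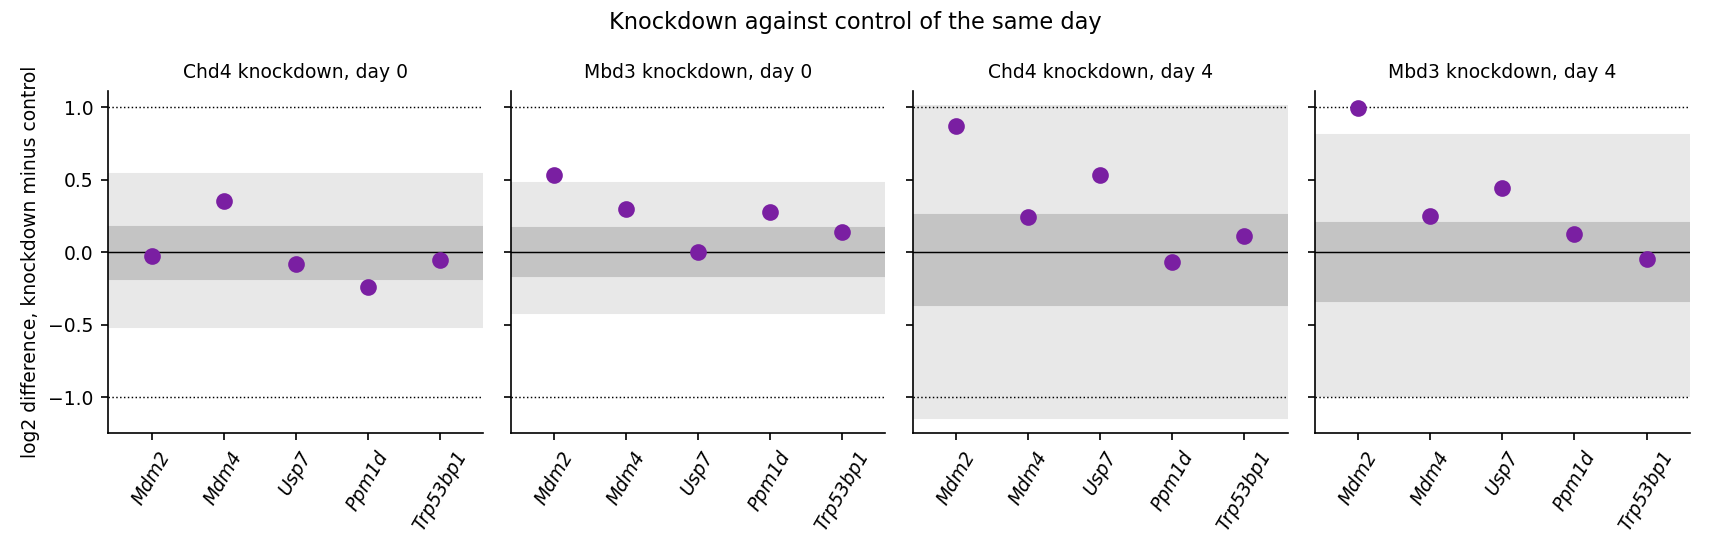
Log2 difference of each regulator between a knockdown array and the control array of the same day (points, no replicates); the dark and light bands hold the middle of all genes compared, from the 25th to the 75th and from the 5th to the 95th percentile, and dotted lines mark 2-fold. In the Mbd3 knockdown Mdm2 stands at 0.53 at day 0 and at 0.99 at day 4, above the light band on both days. In the Chd4 knockdown at day 4 it stands at 0.87, within the light band.

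The size of the members' differences was set beside that of all genes. A gene was compared where the brighter of 2 arrays reached that array's median, which all 5 members did everywhere. None of the 5 differed by 2-fold or more in any of the 7 comparisons between a pair of arrays. Over all genes, 0.692% were that much higher and 0.565% that much lower with Chd4 depleted at day 0, and 0.366% and 0.314% with Mbd3 depleted. At day 4 the shares were 5.08% and 6.64% for Chd4 and 3.44% and 4.89% for Mbd3. Between the days 8.13% were higher and 4.7% lower in control, 1.7% and 1.16% in the Chd4 line, and 1.6% and 1.1% in the Mbd3 line.

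At 1.5-fold, a lower bar chosen after the values were seen, Mdm2 was the 1 member higher with Chd4 depleted at day 4, where 11.1% of genes were higher and 15.4% lower. It was also the 1 member higher with Mbd3 depleted at day 4, where 8.04% of genes were higher and 13.2% lower. Between the days in control Mdm2 was the 1 member lower, with 11.2% of genes, and 17.3% of genes were higher. In the Chd4 line Mdm4 was the 1 member lower between the days, with 4.27% of genes, and 6.21% were higher. In the Mbd3 line no member passed between the days, and 5.69% of genes were higher and 4.76% lower. At day 0 no member passed in either knockdown, where 4.03% of genes were higher and 3.56% lower with Chd4 depleted and 2.95% and 2.04% with Mbd3 depleted. The median of the 5 members was -0.06 with Chd4 and 0.28 with Mbd3 depleted at day 0, and 0.24 and 0.25 at day 4; that of all genes compared lay between -0.06 and -0.002 in these comparisons.

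**Figure D3:**
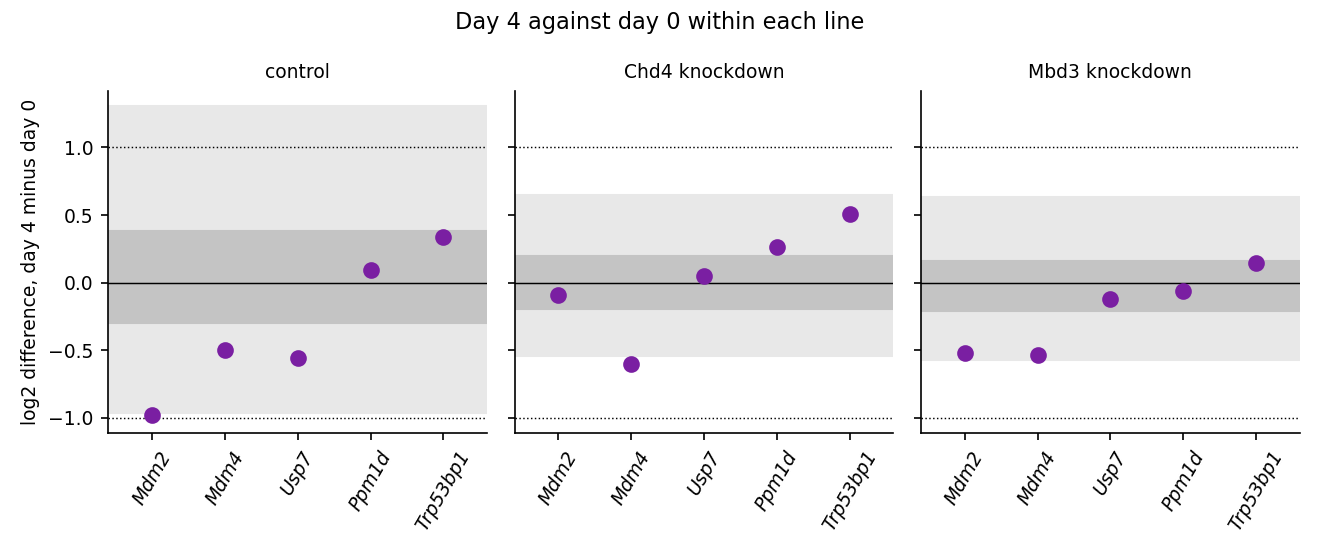
Log2 difference of each regulator between day 4 and day 0 within a line (points, 1 array per day); bands give the 25th to 75th and 5th to 95th percentiles of all genes compared, and dotted lines mark 2-fold. Mdm4 stands between -0.60 and -0.50 in the 3 lines, while Mdm2 stands at -0.98 in control, -0.09 in the Chd4 line and -0.52 in the Mbd3 line. Mdm2 in control and Mdm4 in the Chd4 line lie below the 5th percentile, and the other points lie within the wider band.

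An additive model of line and day over the 6 arrays was fitted with limma across 12926 genes, with 2 residual degrees of freedom. Its error is the departure of the arrays from additive effects, not a spread between cultures, so an effect that varies between lines or days enlarges it. Moderation across genes then draws each gene's error towards a common value, and every SE below is after this step. For Mdm4 the residual SD before it was 0.039, beside a median of 0.17 over the 12926 genes. The fit called 0% of genes (0 of 12926) in each of its contrasts at an adjusted p under 0.05, with 1014, 647 and 1962 genes at an unadjusted p under 0.05 for Chd4, Mbd3 and day, and it called none of the 5 members. The estimates are therefore given for their size. Mdm4 had the estimate with the smallest error, a day difference of -0.55 ± 0.11 (SE), with an unadjusted p = 0.0059 and an adjusted p = 0.20; it was lower at day 4 in 3 of 3 lines.

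Mdm2 had a day difference of -0.53 ± 0.20 (SE) with an adjusted p = 0.33 in this limma fit. By line it was -0.98 in control, -0.09 in the Chd4 line and -0.52 in the Mbd3 line. Without the control line the day difference of Mdm2 was -0.31, and without the Chd4 line -0.75. Its estimate was 0.76 ± 0.25 (SE; adjusted p = 0.84) for the Mbd3 knockdown, higher at both days, and 0.42 ± 0.25 (SE; adjusted p = 0.65) for the Chd4 knockdown, where Mdm2 was higher at day 4 but not at day 0. Trp53bp1 had a day difference of 0.33 ± 0.13 (SE; adjusted p = 0.34), higher in 3 of 3 lines. For Usp7 and Ppm1d the estimates reached at most 0.22 in size. The difference between the day 0 and day 4 effects of a knockdown, 0.89 for Mdm2 and 0.61 for Usp7 with Chd4 depleted and 0.46 and 0.44 with Mbd3 depleted, could not be tested with 1 array per group.

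The genes whose log2 intensities ran most like a member's over the 6 arrays were taken as the 3 with the highest Pearson r among 12926 genes, as a description, since all points share the same arrays. For Mdm2 these were Tbc1d2 (r = 0.998), Synpo2l (r = 0.995) and Polg (r = 0.991), the catalytic subunit of the mitochondrial DNA polymerase; Polg had an intensity of 199 in control at day 0 and 156 at day 4, against 201 and 194 in the Chd4 line and 221 and 204 in the Mbd3 line. Synpo2l lay only between 36.7 and 45.4 over the arrays, near the array medians, and Tbc1d2 was at 33.4 in control at day 4, below them. For Mdm4 the 3 genes were Abi1, Pepd and Plxdc1 (r = 0.998, 0.996 and 0.991). Pepd, a peptidase that splits dipeptides ending in proline, had 240.4, 303.3 and 302.8 at day 0 and 160.4, 203.1 and 199.7 at day 4 in control, Chd4 and Mbd3 knockdown, the order of arrays seen for Mdm4 but for neighbours that barely differ. For Usp7 they were Hspbap1, B4galnt3 and Snf8 (r = 0.999, 0.997 and 0.995), for Ppm1d Alkbh3, Zfp384 and Fem1b (r = 0.99), and for Trp53bp1 Srp54c, Usp22 and Cers6 (r = 0.98). Between members the nearest pair was Mdm2 and Usp7 (r = 0.90) and the most opposed pair Mdm4 and Trp53bp1 (r = -0.79).

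The wider p53 pathway was followed in 6 lists. The first held 16 kinases and DNA damage signaling genes. Of these 0 were past 2-fold in either knockdown at day 0 and 1 was at day 4: Hipk2, a kinase that phosphorylates p53, at -1.07 in the Chd4 knockdown, where 6.64% of all genes were lower by that much, with -0.82 in the Mbd3 knockdown. Its intensity in control was 337 at day 0 and 904 at day 4, against 508 and 430.2 in the Chd4 line and 417 and 512 in the Mbd3 line, so that the control array at day 4 was the high one. Atm, the kinase that senses DNA breaks, differed by -0.42 and 0.13 at day 0 and by -0.21 and -0.28 at day 4, for Chd4 and Mbd3. The list median at day 4 was -0.03 and -0.10, beside -0.04 and -0.06 over all genes.

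Of 17 ubiquitin and SUMO enzymes that act on p53, 0 were past 2-fold in either knockdown on either day. At day 0 the shares of all genes that much higher and lower were 0.692% and 0.565% for Chd4 and 0.366% and 0.314% for Mbd3. At day 4 these shares were 5.08% and 6.64% for Chd4 and 3.44% and 4.89% for Mbd3. Mkrn1, a ligase for p53, had the highest mean over the 4 differences, with -0.01 and -0.15 at day 0 and 0.94 and 0.67 at day 4. Cop1, another p53 ligase, had the lowest, with 0.06 and -0.41 at day 0 and -0.62 and -0.67 at day 4. The list medians at day 4 were 0.12 and 0.07.

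Among 16 acetyl and methyl enzymes of p53 the acetyltransferase gene Kat2b was the 1 gene past 2-fold at day 4, with log2 differences of 1.37 for Chd4 and 1.28 for Mbd3, where 5.08% and 3.44% of all genes were higher by that much; at day 0 there were 0. Its control intensity was 359 at day 0 and 116 at day 4, against 322 and 301.6 in the Chd4 line and 449 and 282 in the Mbd3 line. Sirt1, a deacetylase of p53, was 0.84 higher in both knockdowns at day 4, and Hdac2, a deacetylase of NuRD itself, was at -0.77 and -0.91. The medians of this list at day 4 were 0.01 and -0.07.

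Of 10 nucleolar and ribosomal inhibitors of MDM2, Pml was the 1 gene past 2-fold at day 4, against the same shares of all genes, and there were 0 at day 0. It stood at 1.32 with Chd4 and 1.54 with Mbd3 depleted. PML builds the nuclear bodies in which p53 is modified. Its intensity was 1460 with the control shRNA, 985 with Chd4 and 1293 with Mbd3 depleted at day 0, and 402, 1004 and 1166 at day 4, with the control array at day 4 again far below the others. Cdkn2a, which encodes the MDM2 inhibitor ARF besides p16, lay between 57.3 and 73.9 on all arrays and within 0.12 of the control of the same day; it was named outside the rule, after its values were seen. The ribosomal protein gene Rpl5 differed from control by 0.01 to 0.32, at intensities between 148 and 193.

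Of 13 cofactors and paralogs compared, out of 14 listed, 1 passed 2-fold, Ppp1r13b at 1.01 in the Chd4 knockdown at day 4, beside 5.08% of all genes higher. It encodes ASPP1, which steers p53 towards apoptosis genes, and was higher than control in all 4 knockdown arrays, as were 12.7% of 12926 genes. Its other differences were 0.56 and 0.60 at day 0 and 0.88 for Mbd3 at day 4. Trp73, a paralog of p53, was at 0.74 and 0.69 at day 4.

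The last list held p53 target genes, of which 35 of 38 listed were matched. Of 34 targets compared, 1 was at least 2-fold higher in the Chd4 knockdown at day 0 (Cd80, a costimulatory ligand of T cells) and 0 in the Mbd3 knockdown, and 9 and 6 were at day 4, with 0 lower in each. Over all genes the shares higher were 0.692% and 0.366% at day 0 and 5.08% and 3.44% at day 4. The target medians were -0.06 and 0.25 at day 0 and 0.64 and 0.54 at day 4, for Chd4 and Mbd3, and those of all genes -0.01, -0.002, -0.04 and -0.06. Between the days in control 27 of the 34 targets were lower, 7 of them by 2-fold or more beside 4.7% of all genes. In the Mbd3 line 26 were lower, 4 of them by 2-fold or more beside 1.1% of all genes. In the Chd4 line 14 were lower, 0 of them by 2-fold or more beside 1.16% of all genes. The target medians were -0.42 in control, -0.26 in the Mbd3 line and 0.09 in the Chd4 line. Those of all genes compared were 0.003, -0.03 and -0.01. The low control array at day 4 enters both day 4 differences of the targets, as it does for Mdm2 and Pml. The values of Mdm2, itself a target but not on the list, were -0.02 and 0.53 at day 0 and 0.87 and 0.99 at day 4, against the same control arrays. In the additive limma fit 0 of these 34 targets were called for either knockdown, with 5 for Chd4 and 8 for Mbd3 at an unadjusted p under 0.05, beside 7.84% and 5.01% of the 12926 genes, and 0 genes of the other 5 lists were called. The targets past 2-fold in both lines at day 4 were Perp, Trp53inp1, Cd80, Epha2 and Steap3, and the stem cell and neural markers differed between the same arrays; their part in these differences was not tested. Trp53inp1, which promotes p53 phosphorylation, had an intensity of 824 with the control shRNA, 846 with Chd4 and 1499 with Mbd3 depleted at day 0, and 416, 994 and 1003 at day 4. Cdkn1a, the cell cycle inhibitor p21 and the best known target, was higher than control on all 4 knockdown arrays, as were 12.7% of 12926 genes. Its differences were 0.77 and 0.60 at day 0 and 0.69 and 0.61 at day 4. Cdkn1a was named outside the rule, after its values were seen.

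**Figure D4:**
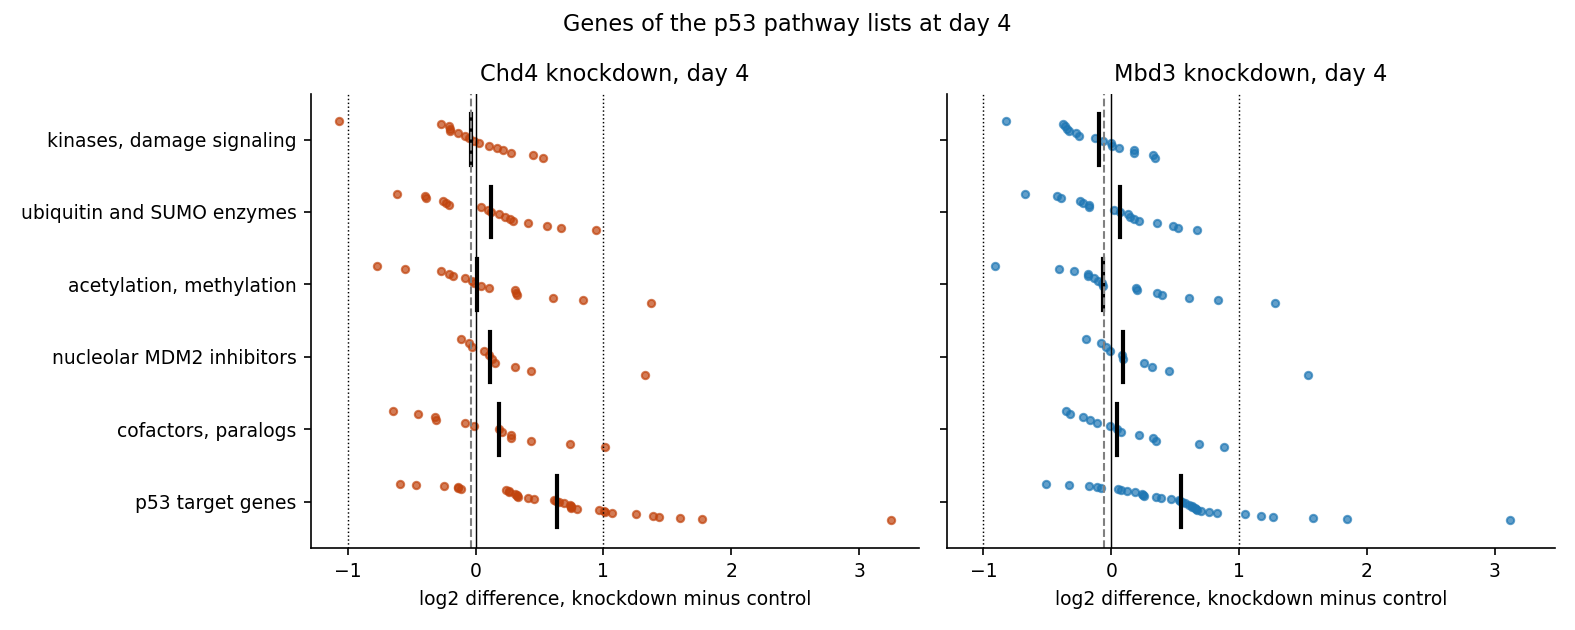
Log2 difference from control at day 4 for every compared gene of the 6 p53 pathway lists, in the Chd4 knockdown (left) and the Mbd3 knockdown (right); points are genes, black bars list medians, the dashed line the median of all genes compared, and dotted lines 2-fold. The bars of 5 lists lie between -0.10 and 0.18, and those of the p53 targets at 0.64 and 0.54.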

How the data were processed

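The data are 6 Mouse Gene 2.0 ST arrays of total RNA, 1 per group by the labels. The deposited intensity values are linear; the authors used GeneSpring GX 12.6.1, per the series design text, and the submitters' processing notes name RMA (background subtraction, quantile normalization, probe set summary), with no version stated. For the probe sets a genome build was not given in the sources used here. Quantile normalization hides a shift shared by all genes, and each array's lowest intensity exceeded 17.4, so folds of dim genes may be compressed.

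Intensities were log2-transformed as deposited. Of 34351 probe sets, 23521 carried 1 symbol in the platform annotation, 1814 several and 9016 none; only the first kind was named, with symbols updated through RefSeq GRCm38.p6, which held 23328 of their gene IDs. Pairs of arrays were described without a test. limma 3.58.1 in R 4.3.3 (lmFit, eBayes, Benjamini-Hochberg) fitted line and day. The fit was also run on simulated data with additive effects and the same residual SD for every gene. These arrays need not meet either condition, so that run does not check the fit on them. The p-values of the fit do not measure a spread between cultures, since the labels do not say whether samples are separate cultures. Python 3.11.15, numpy 2.4.6 and pandas 2.3.3 did the rest.

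The members and lists were chosen with earlier results of these data known. Named genes were the members, the targeted genes, the 3 most alike per member, and list genes past 2-fold or among the 3 highest or lowest means over the 4 knockdown comparisons; Cdkn1a and Cdkn2a were added after their values were seen. Alternatives were 16 subtracted before log2, median centring, quantile normalization, the mean of a gene's probe sets, no intensity filter, eBayes with trend, 1 term for both knockdowns, and each line left out of the day contrast.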

Additional observations from a re-analysis of the deposited data

Results flagged for a closer look

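Ppm1d lay on opposite sides of control in the knockdowns of stem cells, with a log2 difference at day 0 of -0.24 for Chd4 and of 0.28 for Mbd3. It was picked out because both differences exceed 0.17, the median residual SD of the additive fit over 12926 genes, in opposite directions. That SD is of single arrays, not of a difference between 2. Of all genes compared at day 0, 19.9% were at least as low with Chd4 depleted. With Mbd3 depleted 14.4% were at least as high. With 1 array per group the difference between the knockdowns in Ppm1d was not tested, and both are set against the same control array.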

How the results depend on the processing

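The 140 differences of the 5 members between 2 arrays under the 4 scaling and probe set alternatives each stayed within 0.17 of the reported value, the median residual SD of the additive fit, and moved by at most 0.06; 1 changed sign, Usp7 in the Mbd3 knockdown at day 0, from -0.002 to 0.04 with arrays centred on 1 median. In the additive fit no member was called under any alternative, and the Chd4 estimate of Ppm1d, -0.15, was 0.024 with 1 term for both knockdowns. Between the days the adjusted p of Mdm4 ranged from 0.058, without the arrays of the control line, to 0.75. Without that line 683 genes in place of 0 were called between the days, in a fit with 1 residual degree of freedom that takes the knockdown lines as replicates of each other; leaving out either knockdown line called 0. With 16 subtracted before log2, more genes passed 2-fold: 324 in place of 169 in the Chd4 line and 206 in place of 91 in the Mbd3 line at day 0, 1711 in place of 1133 in the Mbd3 knockdown at day 4, and between the days 642 in place of 383 with Chd4 and 640 in place of 360 with Mbd3 depleted. Subtracting the same amount from both intensities enlarges the fold between them, most where they are dim. The other counts stayed within 1.5 times. The additive fit takes the day contrast within lines. By replicate number no paired analysis was possible because each group holds 1 array and the labels carry no replicate numbers.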
